A study of Mus musculus with 8 samples.

Results

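The genes described here are 45 interferon-stimulated antiviral genes of the mouse, taken by symbol from a list drawn up for this work and matched to the deposited Ensembl identifiers. All 45 were among the 43629 genes in the count table, and all 45 passed the filter on low counts that left 13035 genes for testing. No cut-off on a measured difference was applied to choose the members. The list was drawn up with earlier results of these data known, so it cannot be taken as independent of them. RNA was measured in 8 libraries of follicular B cells sorted from spleen, and the labels give the gate as B220+, CD93+, CD21+ and CD23+. The labels name 4 libraries Rosa26GFPZFP36L1 CD23cre/+, called GFP-ZFP36L1 here. The other 4 are labelled Rosa26GFPZFP36L1 alone and are called control. Both groups therefore carry the Rosa26 allele. The Cre recombinase is driven from CD23, a gene switched on as B cells mature, so carrying Cre and expressing GFP-ZFP36L1 cannot be told apart in this design. No interferon was given to the cells or the animals, as far as the labels say, and the age and the number of animals are not stated there. Nothing says whether separate animals gave the libraries of a group, so p-values measure the spread among these libraries.

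Type I interferon binds the receptor IFNAR1/IFNAR2 and, through the kinases JAK1 and TYK2, activates a complex that contains STAT2 and IRF9. This complex binds the interferon-stimulated response element in promoters and switches on a large set of antiviral genes. They encode sensors of viral RNA, enzymes that degrade RNA or block translation, GTPases that trap viral particles, and the ubiquitin-like modifier ISG15. Resting lymphocytes keep many of these genes at a low tonic level. ZFP36L1, the protein under study, binds AU-rich elements in 3' untranslated regions and promotes mRNA decay.

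Each library held between 38947758 and 51024233 counts, of which the members took between 238930 and 342109. Zfp36l1 itself ran against the label, at 471, 447, 437 and 402 CPM in the libraries labelled GFP-ZFP36L1 and 599, 523, 532 and 535 CPM in controls. CPM is counts per 1000000 on scaled library sizes, and values are listed in the order of replicates 1 to 4. Gt(ROSA)26Sor, the noncoding gene at the Rosa26 locus, separated the groups in every library, at 3.66, 4.46, 4.34 and 3.17 CPM in labelled libraries and 19.9, 17.2, 16.7 and 13.6 CPM in controls. Fcer2a, which encodes CD23, had 1114 to 1358 CPM in labelled libraries and 1388 to 1555 CPM in controls. Summed B cell markers reached 13821 to 15772 CPM in labelled libraries and 15867 to 17052 CPM in controls. Of the other cell types checked, T cell markers summed to at most 0.439 CPM in labelled libraries and 0.477 CPM in controls. Markers of plasmacytoid dendritic cells, the main producers of type I interferon, summed to 28.4 to 31.6 CPM in labelled libraries and 24.7 to 27.9 CPM in controls. Nearly all of that came from Pacsin1, while their defining marker Siglech was at most 0.0692 CPM in any library.

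The members stood a little higher in the libraries labelled GFP-ZFP36L1, but 1 of the 4 was not above the controls. The mean log2 level over the 45 members was 5.25, 5.71, 5.50 and 5.84 in the labelled libraries and 5.18, 5.28, 5.43 and 5.31 in the controls. Labelled library 1 lay inside the control range, and labelled libraries 2, 3 and 4 lay above every control, library 3 by little. The sample titles number controls and labelled libraries in turn, and the 2 lowest levels were those numbered first, control 1 and labelled library 1. Each labelled library stood above the control numbered just before it, libraries 1 and 3 by little, although no label pairs them. The part of this order in the level of labelled library 1 was not tested. The group means were 5.57 ± 0.257 in the labelled libraries and 5.30 ± 0.104 in the controls (SD, n = 4 each), a difference of 0.27 on the log2 scale and of 0.38 without labelled library 1. Labelled library 1 followed its label in Gt(ROSA)26Sor, and its total of 43929445 counts lay within the control range. In bulk RNA, fewer cells with a high level and less RNA per cell cannot be told apart.

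**Figure D1:**
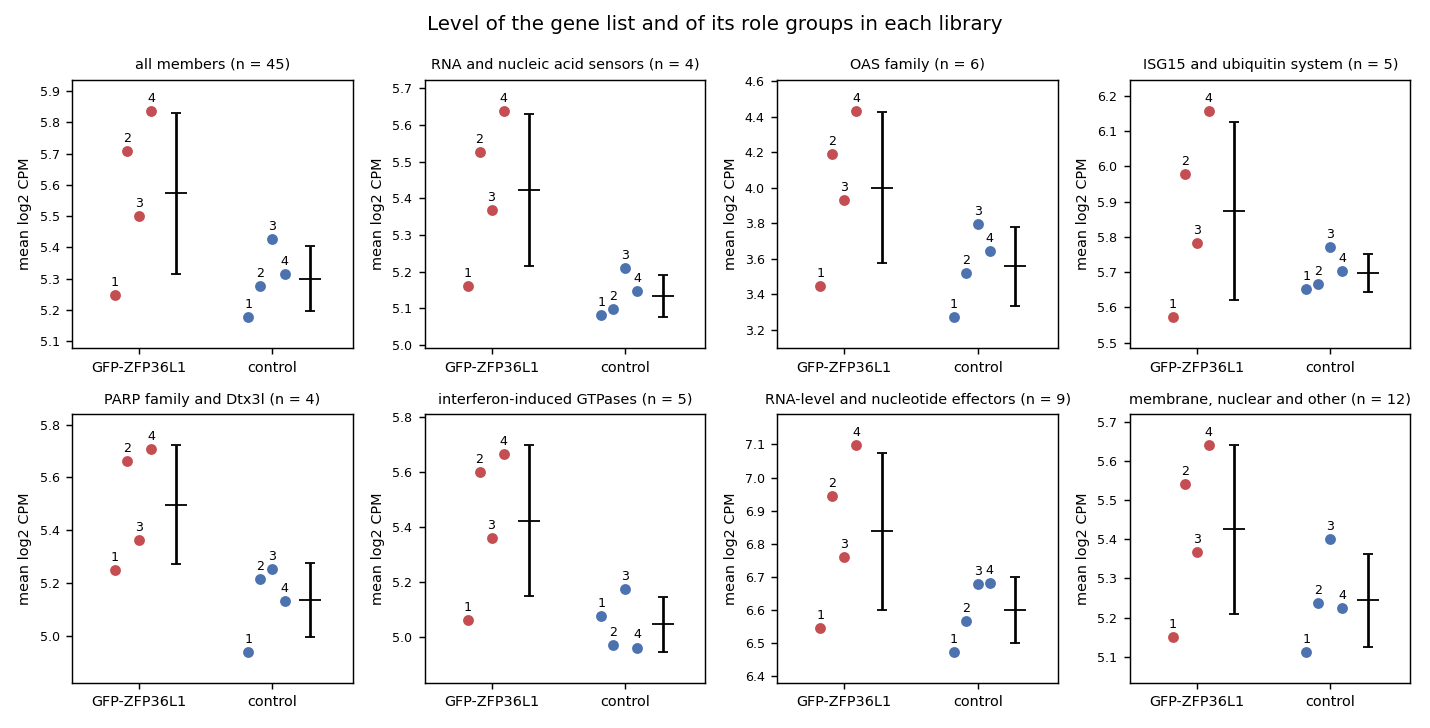
The level of the 45 members and of their 7 role groups in each library, as the mean of log2 CPM, with numbered points for replicates and bars for the mean ± SD of 4 libraries. For all members the libraries labelled GFP-ZFP36L1 sit at 5.25, 5.71, 5.50 and 5.84 and the controls between 5.18 and 5.43.

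The libraries were ordered much alike in most members. Within the labelled group, library 1 was the lowest in 36 of 45 members, against 32.8% of all tested genes, and library 4 was the highest in 26, against 31.2%. Labelled libraries 1 to 4 lay above all 4 controls in 8, 36, 24 and 36 members, where 24.5%, 25.5%, 23.6% and 31.1% of all tested genes did so. Labelled library 1 was inside the control range for 27 members and below it for 10, among them Mx1, Usp18 and Xaf1. Of all tested genes, 24.5% were below all controls in this library, so the 10 are not particular to the members. The controls were graded too. Control 1 was below the other 3 controls in 26 members, where 32.9% of all tested genes were. Control 3 was above the other 3 in 24 members, where 20.3% of all tested genes were. The median coefficient of variation of the members was 15.96% in the labelled libraries and 8.59% in the controls, while all tested genes had medians of 9.04% in the labelled libraries and 7.37% in the controls.

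**Figure D2:**
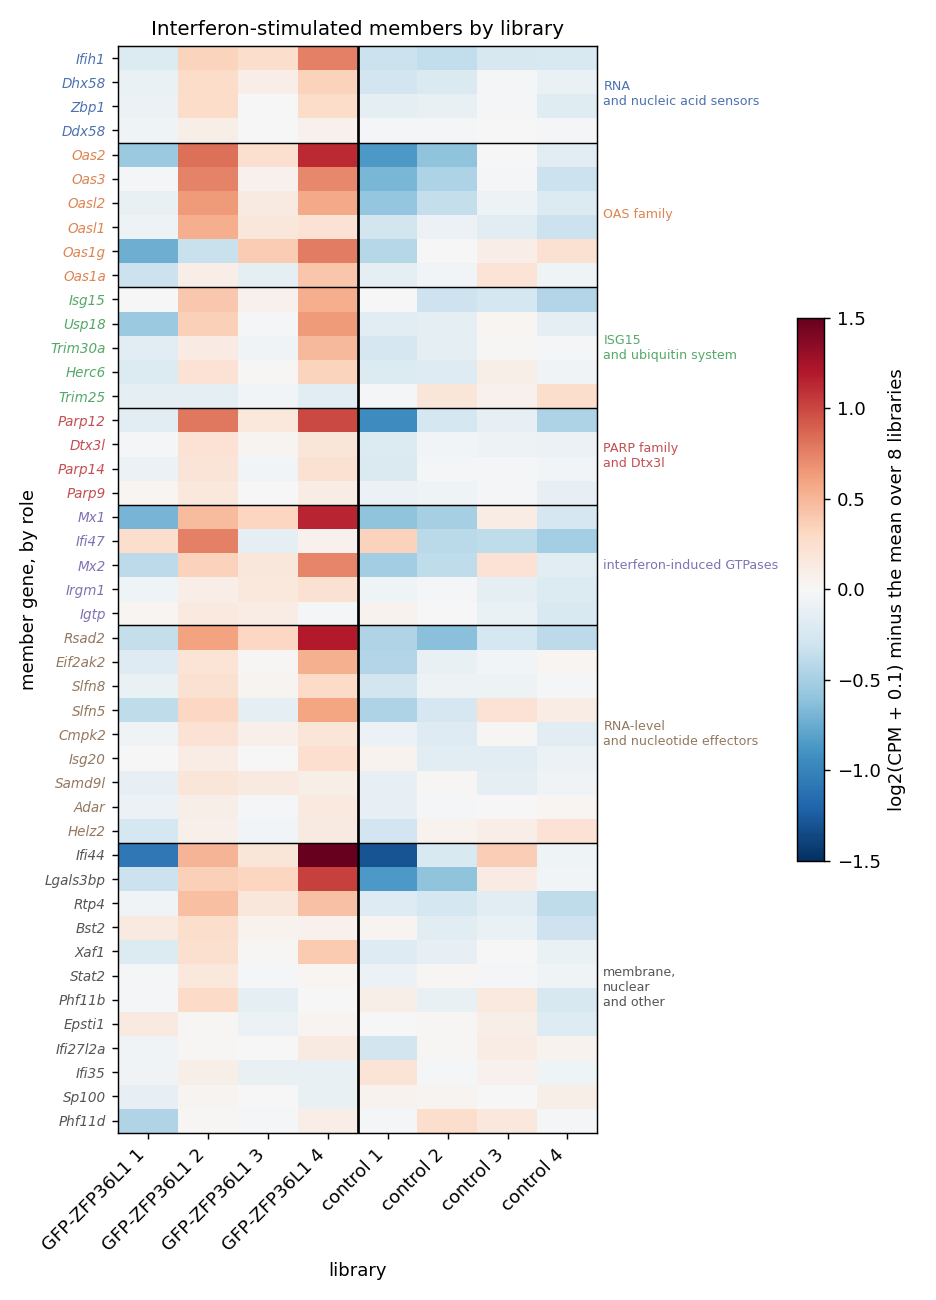
Each member in each library, as log2(CPM + 0.1) minus its mean over the 8 libraries, with members grouped by role and red for higher values. Labelled libraries 2 and 4 are red in most members, and labelled library 1 is mostly blue or pale like the controls.

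Of the 45 members, 1 passed the test, Rtp4, which rose, and 0 fell (edgeR's quasi-likelihood test, QL, with p adjusted by Benjamini and Hochberg, BH, under 0.05), where 1.83% of all tested genes were called higher and 1.3% lower. DESeq2 called 10 members higher and 1 lower, where 3.74% of genes were called higher and 2.9% lower. At an unadjusted p under 0.05 in the edgeR test there were 18 members higher and 1 lower, where 9.47% of all tested genes were higher and 7.87% lower. The log2 fold changes of labelled over control libraries ran from -0.24 to 1.03 with a median of 0.22, and 40 of the 45 were above 0. Over all tested genes the median was -0.01 and 47.9% were above 0. The members share their libraries, so these signs are not separate observations. Without labelled library 1 the same test called 15 members higher and 0 lower, where 4.07% of all tested genes were called higher and 3.13% lower, and the median of the members was 0.30. Labelled library 1 was singled out because it stood low in these members, so leaving it out raises their differences by construction, and all values without it are given as a description. That holds for each adjusted p and call without it below, and for ranges over alternatives that such a fit bounds. Leaving out any other library left between 0 and 1 member higher, where 0.394% to 1.16% of all tested genes were called higher. The groups did not overlap, with every labelled library above every control, in 7 members, namely Rtp4, Isg15, Ifih1, Oasl1, Bst2, Parp9 and Dtx3l, where 6.24% of all tested genes did so. Trim25 alone among the members showed the reverse, where 4.98% of all tested genes did so. Without labelled library 1, 22 members lay above all controls in every remaining labelled library and 1 below, where 10.8% of all tested genes were above and 11.7% below.

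**Figure D3:**
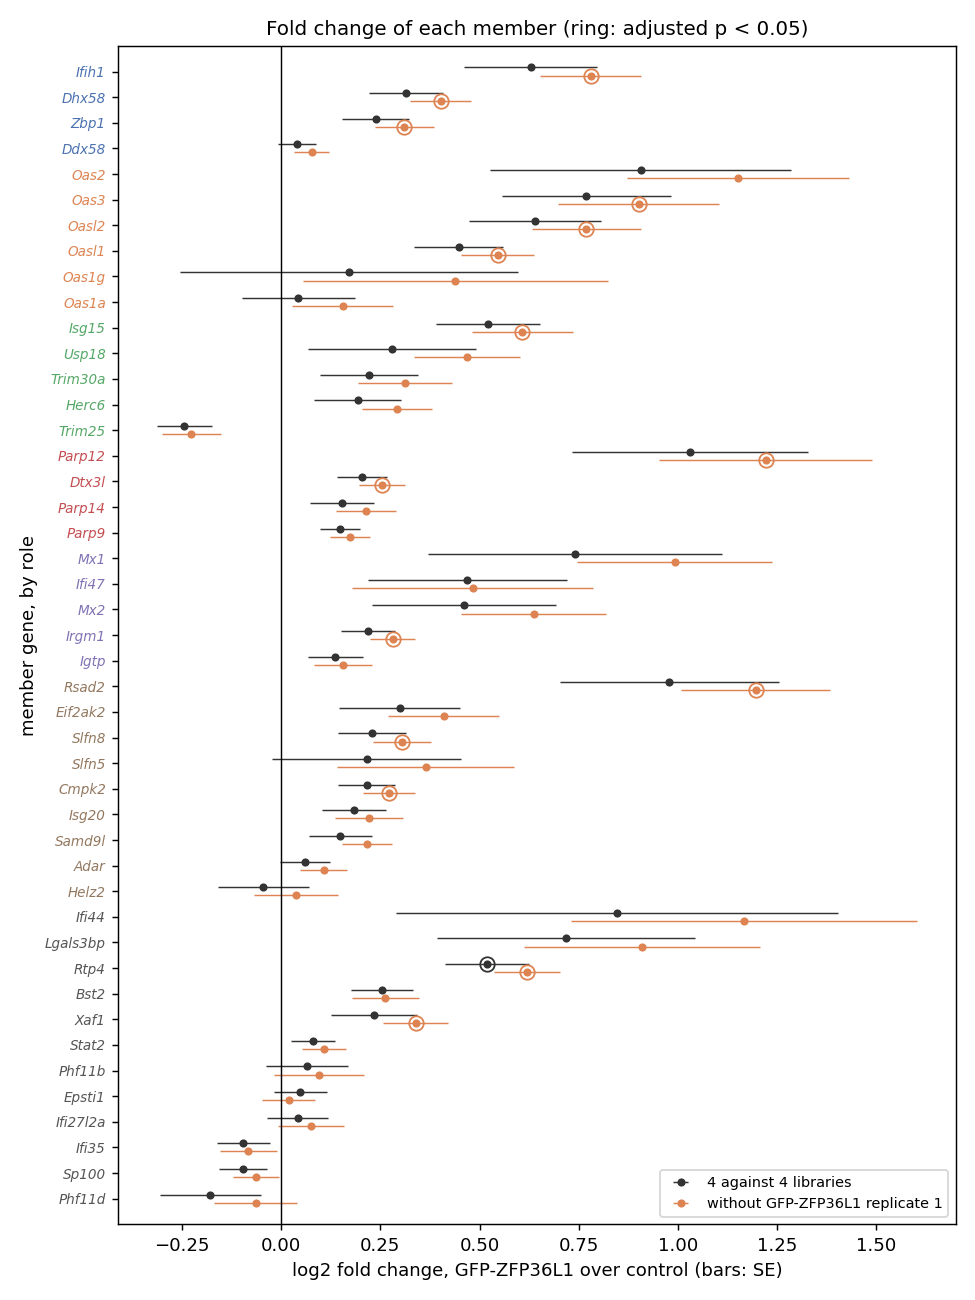
The log2 fold change of each member, labelled GFP-ZFP36L1 over control, with bars for its standard error, from all 8 libraries in black and without labelled library 1 in orange. A ring marks an adjusted p under 0.05, which Rtp4 alone has among the black points and 15 members have among the orange ones.

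Rtp4, whose product is a receptor-transporting chaperone known also to restrain viral RNA replication, had the smallest p among the members. It lies at chr16:23520291-23614222 on the plus strand of GRCm38 (ENSMUSG00000033355). Rtp4 had 20.9, 29.6, 24.5 and 29.4 CPM in labelled libraries and 18.9, 18.1, 19.3 and 16.6 CPM in controls. Every labelled library lay above every control, and labelled library 1 was the nearest to them. The difference was 0.52 ± 0.11 (SE) on the log2 scale, at an adjusted p of 0.0284 (edgeR QL test, BH). Rtp4 was called under 11 of 17 alternatives, with adjusted p from 0.000388 to 0.0887 across them. When single libraries were left out, the call held without labelled library 1 or labelled library 4 and was lost without any of the other 6.

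Isg15 encodes the ubiquitin-like protein that is joined to viral and host proteins, and Usp18 the protease that removes it and also damps the interferon receptor. Isg15 (ENSMUSG00000035692, chr4:156199424-156200818, minus strand) had 11.2, 14.7, 11.6 and 16.2 CPM in labelled libraries and 11.1, 8.89, 9.21 and 8.18 CPM in controls. The groups did not overlap, although labelled library 1 stood only just above control 1. On the log2 scale the difference was 0.52 ± 0.13 (SE), at an adjusted p of 0.0573 (edgeR QL test, BH). That p was 0.0206 without labelled library 1, and it ran from 0.00515 to 0.161 over 17 alternatives. Usp18 had 9.14, 17.4, 13.3 and 21.1 CPM in labelled libraries and 11.96, 12.3, 13.8 and 12.2 CPM in controls. The labelled libraries lay on both sides of the tight controls, with the lowest of all 8 libraries in labelled library 1. The log2 fold change of Usp18 was 0.28 ± 0.21 (SE).

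Trim25 encodes the ubiquitin ligase that helps activate RIG-I and can also attach ISG15. It was the member most clearly at odds with the others, at 334, 337, 362 and 334 CPM in labelled libraries and 364, 421, 389 and 445 CPM in controls. All labelled libraries lay below all controls, and labelled library 1 did so as well. The fold change was -0.24 ± 0.07 (SE) in log2 units, at an adjusted p of 0.0868 (edgeR QL test, BH). It was called lower under 5 of 17 alternatives, DESeq2 and limma voom among them, with adjusted p from 0.00937 to 0.221. Herc6, the main ligase for ISG15 in the mouse, and Trim30a had log2 fold changes of 0.19 ± 0.11 and 0.22 ± 0.12 (SE), neither of which passed.

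Of the 4 nucleic acid sensors, 0 passed with all libraries in the edgeR QL test, where 1.83% of all tested genes were called higher. At an unadjusted p under 0.05 in that test 3 were higher, where 9.47% of all tested genes were. DESeq2 called Ifih1 and Dhx58 higher, where it called 3.74% of genes higher. Ifih1 encodes MDA5, the sensor of long double-stranded RNA. Ifih1 had 5.32, 7.82, 7.45 and 10.5 CPM in labelled libraries and 4.89, 4.77, 5.19 and 5.26 CPM in controls. The controls lay close together and every labelled library was above them, labelled library 1 by little. In log2 units the difference came to 0.63 ± 0.17 (SE), at an adjusted p of 0.0715 with all libraries and 0.00757 without labelled library 1 (edgeR QL test, BH), and from 0.00751 to 0.183 over 17 alternatives. Ddx58, which encodes RIG-I, the sensor of short RNA with a triphosphate end, had 154, 172, 162 and 169 CPM in labelled libraries and 159, 158, 162 and 160 CPM in controls. The groups overlapped and the log2 fold change was 0.04 ± 0.05 (SE). Dhx58 encodes LGP2, which regulates both sensors, and had 39.8, 51.9, 45.9 and 54.2 CPM in labelled libraries and 35.2, 36.9, 42.4 and 39.8 CPM in controls. Labelled libraries 2, 3 and 4 lay above all controls, and labelled library 1 stood level with control 4. The log2 fold change was 0.31 ± 0.09 (SE), and its adjusted p (edgeR QL test, BH) was 0.102, or 0.0134 without labelled library 1, with 0.0115 to 0.235 over 17 alternatives. Zbp1, a sensor of left-handed nucleic acid, had a log2 fold change of 0.24 ± 0.08 (SE) and passed only without labelled library 1 among the 17 alternatives.

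The OAS family had the largest shift of the 7 role groups, with a mean log2 level of 3.45, 4.19, 3.93 and 4.43 in the labelled libraries and 3.27, 3.52, 3.79 and 3.64 in the controls. OAS enzymes make short oligoadenylates that activate the RNA-degrading enzyme RNase L. Oas3 had 29.4, 50.4, 31.4 and 49.5 CPM in labelled libraries and 18.7, 21.8, 29.8 and 24.1 CPM in controls. Labelled libraries 2 and 4 stood well above all controls, labelled library 3 just above control 3 and labelled library 1 just below it. Oas3 had a log2 fold change of 0.77 ± 0.21 (SE). Oasl1, known in the mouse as a translational brake on Irf7, had 43.0, 66.5, 50.9 and 52.9 CPM in labelled libraries and 37.4, 42.5, 40.3 and 36.2 CPM in controls. The groups did not overlap, and labelled library 1 exceeded control 2 by less than 1 CPM. Oasl1 had a log2 fold change of 0.45 ± 0.11 (SE).

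Oasl2 had 22.0, 36.8, 26.01 and 35.2 CPM in labelled libraries and 15.8, 18.4, 22.4 and 20.5 CPM in controls. Labelled library 1 fell just under control 3, and the other labelled libraries lay above all controls. For Oasl2 the log2 fold change was 0.64 ± 0.17 (SE). With all libraries the adjusted p was 0.101 for Oas3, 0.0577 for Oasl1 and 0.075 for Oasl2, and without labelled library 1 it was 0.0423, 0.00917 and 0.0135 in that order (edgeR QL test, BH). Over 17 alternatives it ran from 0.0332 to 0.268 for Oas3, from 0.00491 to 0.146 for Oasl1 and from 0.00242 to 0.234 for Oasl2. Oas2 had 27.6, 71.8, 48.0 and 87.8 CPM in labelled libraries and 22.3, 26.7, 40.7 and 35.9 CPM in controls. Its spread was wide in both groups, and a log2 fold change of 0.91 ± 0.38 (SE) passed under 0 of 17 alternatives. Oas1a had a log2 fold change of 0.04 ± 0.14 (SE), and Oas1g one of 0.17 ± 0.43 (SE) with at most 0.512 CPM in any library. Oas1a and Oas1g are close copies, so the authors' counting may not have told their reads apart.

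**Figure D4:**
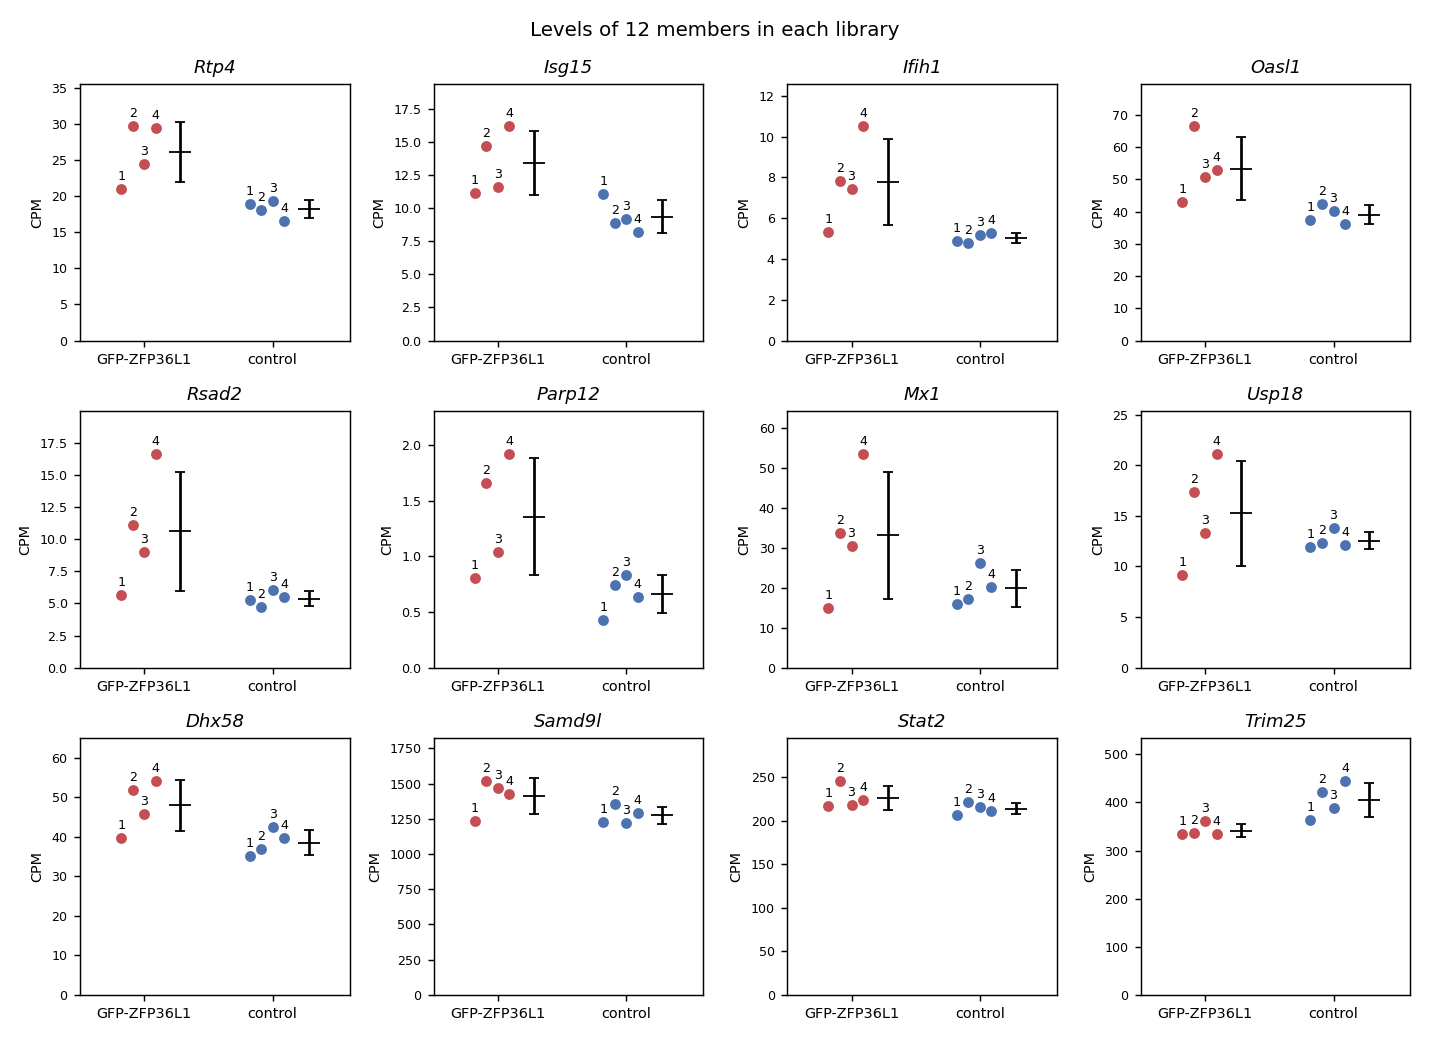
CPM of 12 members in each library, with numbered points for replicates 1 to 4 and bars for the mean ± SD. Rtp4, Isg15, Ifih1 and Oasl1 show no overlap, at 20.9 to 29.6 CPM in labelled libraries and 16.6 to 19.3 CPM in controls for Rtp4, while Mx1 overlaps through labelled library 1, Usp18 overlaps through labelled libraries 1 and 3, and Trim25 runs the other way.

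The effectors that act on RNA, nucleotides or translation gave both large and small differences. Rsad2 encodes viperin, which makes a chain-terminating nucleotide, and its neighbour Cmpk2 encodes a nucleotide kinase that supplies the substrate. Rsad2 had 5.64, 11.1, 9.02 and 16.7 CPM in labelled libraries and 5.28, 4.69, 6.04 and 5.53 CPM in controls. Labelled library 1 lay among the controls while the other 3 exceeded all of them. The difference was 0.98 ± 0.28 (SE) on the log2 scale, and its adjusted p (edgeR QL test, BH) was 0.1, or 0.0083 without labelled library 1, with 0.0083 to 0.287 over 17 alternatives. The low end of that range is the fit without labelled library 1, given as a description. Cmpk2 had 27.8, 33.2, 30.4 and 32.5 CPM in labelled libraries and 26.9, 25.1, 29.0 and 25.8 CPM in controls. Labelled library 1 again lay inside the control range, but the log2 fold change was only 0.22 ± 0.07 (SE). The genes lie 12751 bp apart on opposite strands of chromosome 12.

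Eif2ak2 encodes PKR, the kinase that halts translation on double-stranded RNA. It had 59.5, 78.5, 69.1 and 98.6 CPM in labelled libraries and 50.2, 63.0, 66.1 and 69.3 CPM in controls. The groups overlapped, and the log2 fold change was 0.30 ± 0.15 (SE). Samd9l, a translation inhibitor and a strongly expressed member, had 1232, 1520, 1472 and 1425 CPM in labelled libraries and 1227, 1355, 1223 and 1291 CPM in controls. Labelled libraries 2, 3 and 4 were above all controls and labelled library 1 was not, with a log2 fold change of 0.15 ± 0.08 (SE). Slfn8, a Schlafen family gene, had 161, 201, 178 and 209.6 CPM in the labelled libraries and 143, 163, 164 and 169.9 CPM in the controls. On the log2 scale the difference was 0.23 ± 0.08 (SE). Without labelled library 1, Slfn8 and Cmpk2 reached adjusted p of 0.0324 and 0.0317 (edgeR QL test, BH), with ranges of 0.0324 to 0.363 and 0.0317 to 0.309 over 17 alternatives. The RNA-editing enzyme gene Adar and the helicase gene Helz2 had log2 fold changes of 0.06 ± 0.06 and -0.04 ± 0.11 (SE).

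Of the 5 interferon-induced GTPase genes, 0 passed with all libraries in the edgeR QL test, where 1.83% of all tested genes were called higher. At an unadjusted p under 0.05 in that test 1 was higher, where 9.47% of all tested genes were. DESeq2 called Irgm1 higher, where it called 3.74% of genes higher. Mx1 encodes a protein whose functional form blocks influenza-like viruses in the nucleus in mouse. Mx1 had 14.9, 33.8, 30.4 and 53.6 CPM in labelled libraries and 15.9, 17.1, 26.2 and 20.3 CPM in controls. Labelled library 1 was the lowest of all 8 libraries and labelled library 4 the highest. The log2 fold change of 0.74 ± 0.37 (SE) did not pass, at an adjusted p of 0.366 (edgeR QL test, BH). It was 0.99 without labelled library 1, at an adjusted p of 0.0607 in the same test, and 0 of 17 alternatives called Mx1, with adjusted p from 0.0607 to 0.66. Irgm1, a regulator of the immunity-related GTPases and of autophagy, had 152, 171, 177 and 187 CPM in labelled libraries and 152, 156, 143 and 138 CPM in controls. Labelled libraries 2, 3 and 4 were above all controls, and labelled library 1 stood level with control 1. The fold change was 0.22 ± 0.07 (SE) in log2 units, and its adjusted p was 0.109, or 0.018 without labelled library 1, with 0.0171 to 0.27 over 17 alternatives (edgeR QL test, BH). Ifi47, another immunity-related GTPase, had 51.4, 72.6, 38.8 and 45.05 CPM in labelled libraries and 54.7, 32.5, 33.0 and 30.2 CPM in controls. In Ifi47 the order of the libraries was not that of the other members, since control 1 and labelled library 1 were among the 3 highest. Its log2 fold change was 0.47 ± 0.25 (SE). Mx2, annotated as a polymorphic pseudogene, and Igtp had log2 fold changes of 0.46 ± 0.23 and 0.14 ± 0.07 (SE).

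The PARP genes of the list encode ADP-ribosyltransferases, and Dtx3l encodes the ubiquitin ligase that pairs with PARP9. Parp12 had the largest log2 fold change of the 45 members, 1.03 ± 0.30 (SE), at 0.806, 1.66, 1.04 and 1.92 CPM in labelled libraries and 0.430, 0.744, 0.833 and 0.639 CPM in controls. Labelled library 1 lay just under control 3 and the other 3 above all controls. Its adjusted p was 0.0899 with all libraries and 0.0234 without labelled library 1 (edgeR QL test, BH), and 0.0234 to 0.203 over 16 alternatives. Dtx3l had 112, 132, 117 and 129.7 CPM in labelled libraries and 99.4, 111, 108 and 108 CPM in controls, with no overlap. In log2 units the difference came to 0.20 ± 0.06 (SE), and it passed without labelled library 1 at an adjusted p of 0.0267 (edgeR QL test, BH), with 0.0267 to 0.256 over 17 alternatives. Parp14 had 250.2, 304, 259.8 and 313 CPM in labelled libraries and 230.1, 264, 261 and 259 CPM in controls, and a log2 fold change of 0.15 ± 0.08 (SE). Parp14, Dtx3l and Parp9 lie close together on chromosome 16. Exons of Dtx3l and Parp9 overlap by 458 bp on opposite strands, and no label or header gives the strand setting of the counting.

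The remaining members encode membrane, nuclear and other proteins. Stat2, part of the complex that drives interferon-stimulated genes, had 216, 246, 218 and 224 CPM in labelled libraries and 206, 222, 216 and 212 CPM in controls. The groups overlapped, and the log2 fold change was 0.08 ± 0.06 (SE). Bst2 encodes tetherin, which holds budding virus at the cell surface, and had 36.1, 39.6, 34.3 and 34.3 CPM in labelled libraries and 34.0, 29.6, 30.9 and 26.6 CPM in controls. Labelled library 1 was the second highest for Bst2, and no labelled library lay below a control. The log2 fold change was 0.25 ± 0.08 (SE), with adjusted p of 0.11 (edgeR QL test, BH), and it was called under 3 of 17 alternatives. Xaf1, a pro-apoptotic gene, had 36.9, 50.3, 43.0 and 55.7 CPM in labelled libraries and 37.2, 38.9, 42.3 and 39.6 CPM in controls. The difference was 0.23 ± 0.11 (SE) on the log2 scale, and it passed only without labelled library 1 among the 17 alternatives. Ifi27l2a had 121, 127, 126 and 137 CPM in labelled libraries and 104, 127, 136 and 129.9 CPM in controls. It differed little, with a log2 fold change of 0.04 ± 0.08 (SE) that turned negative without control 1, at -0.04, and with limma voom, at -0.02.

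The 20 members outside the rule for named genes, of which some are given above, had log2 fold changes from -0.18 to 0.91, of which 16 were positive and 4 negative. Their adjusted p ran from 0.137 to 0.915 (edgeR QL test, BH), and none passed without labelled library 1, where the smallest was 0.0664. The negative ones were Phf11d at -0.18, Sp100 at -0.10, Ifi35 at -0.09 and Helz2 at -0.04. Phf11b and Phf11d are neighbouring copies on chromosome 14, and their reads may not have been told apart. Lgals3bp and Ifi44, which had log2 fold changes of 0.72 ± 0.33 and 0.85 ± 0.56 (SE), were among the most variable. Ifi44 had 0.461, 1.58, 1.25 and 3.48 CPM in labelled libraries and 0.382, 0.905, 1.43 and 1.03 CPM in controls.

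Per kb of exon, the members spanned more than 3 orders of magnitude. Ifi27l2a averaged 276 CPM per kb in the labelled libraries and 268 in the controls, and Samd9l averaged 260.2 CPM per kb in the labelled libraries and 235 in the controls. Helz2, Sp100 and Trim25 followed, with 112, 71.5 and 59.4 CPM per kb in the labelled libraries and 116, 76.4 and 70.3 CPM per kb in the controls. At the low end, Ifih1 averaged 0.952 CPM per kb in the labelled libraries and 0.616 in the controls, and Parp12 averaged 0.340 in the labelled libraries and 0.166 in the controls. Of the 44 pairs of neighbours in this order, 41 had ranges over the 8 libraries that overlapped. The 22 members of lower level, from 0.118 to 15.04 CPM per kb, had a median log2 fold change of 0.39. The 22 of higher level, from 15.3 to 272 CPM per kb, had a median of 0.14. Of all tested genes, the 8924 in the lower range of levels had a median of 0.02 and the 3311 in the higher range a median of -0.05, on the same scale.

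**Figure D5:**
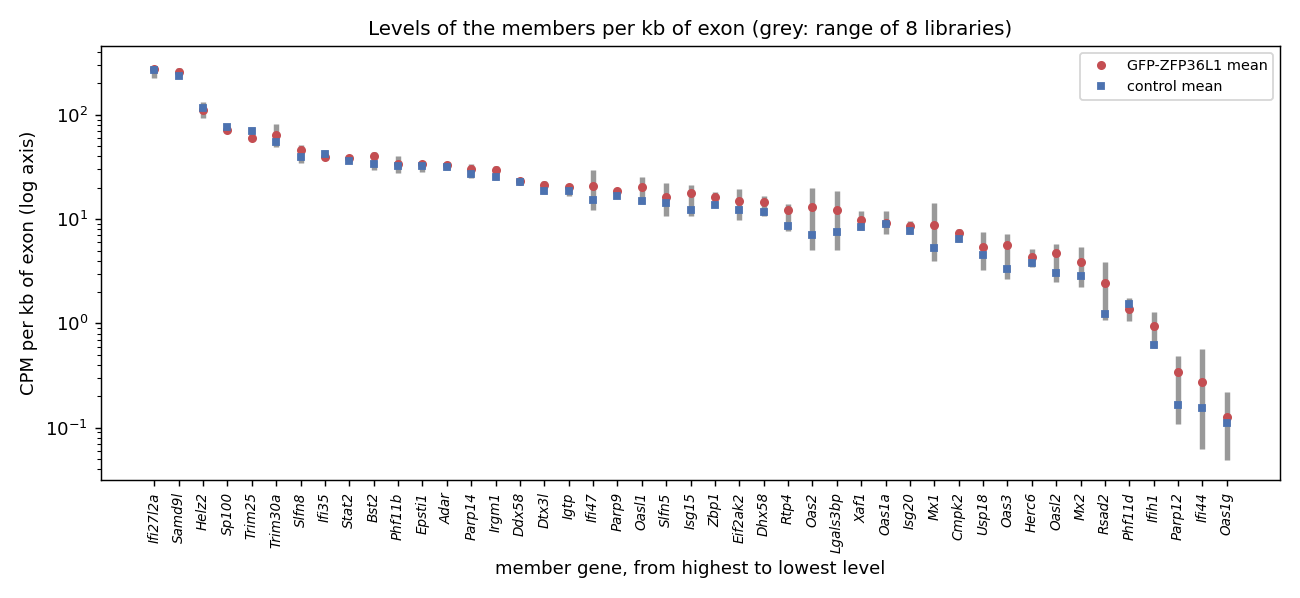
Mean level of each member as CPM per kb of exon on a log axis, with red points for the libraries labelled GFP-ZFP36L1, blue squares for controls and grey bars for the range over 8 libraries. Members run from Ifi27l2a at 272 CPM per kb over all libraries to Oas1g at 0.118, and red lies clearly above blue in several low members such as Rsad2, Ifih1 and Parp12.

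Promoters were searched for the core of the interferon-stimulated response element, which is GAAA, any 2 bases and GAAA again, or TTTC, any 2 bases and TTTC on the other strand, in the 250 bases before and 50 after the RefSeq start site in GRCm38.p6. The promoter sequences at hand covered 35 of the 45 members. Those of Mx1, Mx2, Oas2, Usp18, Rtp4, Zbp1, Dhx58, Ifi27l2a, Parp9 and Parp14 were not among them and were not searched. The core was present in 16 of these 35 promoters, or 45.7%, against 3.44% of all 32851 promoters of the same length. The second motif, the gamma-activated site (TTC, any 3 bases and GAA), which reads the same on both strands, was present in 6 of 35, or 17.1%, against 8.30% of all promoters. The windows below, from some of the 16 members, show the core in capitals, read 5' to 3' on the strand of the gene. The members shown have log2 fold changes between 0.04, for Ddx58, and 0.98, for Rsad2.
Isg15, chr4:156200866-156200893, minus strand: aaggaaaccGAAACAGAAAatagctctg
Ifih1, chr2:62646206-62646232, minus strand: aagagaatcGAAACAGAAAccgatctg
Oas3, chr5:120777716-120777743, minus strand: cagggaggaGAAAACGAAAgtgaaggga
Irgm1, chr11:48871426-48871453, minus strand: caagaaataGAAACCGAAActgattctc
Rsad2, chr12:26456554-26456581, minus strand: tggtccaacTTTCATTTTCagaaaacag
Slfn8, chr11:83020840-83020867, minus strand: tttgagcagTTTCGTTTTCcccaaaagc
Ddx58, chr4:40239805-40239832, minus strand: ctgaggcagTTTCGATTTCctatggcca
Stat2, chr10:128270267-128270294, plus strand: gcaccctggTTTCAGTTTCctttcccta
Eif2ak2, chr17:78882536-78882563, minus strand: gtccgccggGAAAACGAAAcagaagaga

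Isg15 and Ifih1 share the core GAAACAGAAA, with log2 fold changes of 0.52 and 0.63, and Oas3 and Eif2ak2 share GAAAACGAAA, with log2 fold changes of 0.77 and 0.30. Among members not shown, Bst2, Igtp, Oas1a and Oas1g share GAAACTGAAA, with smaller log2 fold changes of 0.25, 0.14, 0.04 and 0.17. Phf11b and Slfn5 share GAAAAAGAAA, at 0.07 and 0.22. The core was matched 3 times in the Isg15 promoter and 2 times in those of Irgm1, Bst2, Oas1a and Oas1g. The windows of Isg15 and Irgm1 each hold 2 of these matches, which overlap, and the capitals mark the one nearest the start site. The median log2 fold change was 0.22 for the 16 members with a core and 0.19 for the 19 without. Oasl1, Oasl2, Parp12, Xaf1, Dtx3l and Cmpk2 had no core in their promoter windows, and Rtp4, Zbp1 and Dhx58 were not searched.

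ZFP36L1 binds the heptamer UAUUUAU in 3' untranslated regions, counted here as TATTTAT in the longest annotated one of each gene. It was present in 8 of 45 members, or 17.8%, against 29.6% of the 10978 tested genes with a 3' untranslated region. The 8 were Mx1, Oas3, Usp18, Ifi44, Ifih1, Eif2ak2, Slfn5 and Sp100. Their median log2 fold change was 0.46, and that of the other members was 0.20. Over all tested genes the medians were 0.00 with the heptamer and -0.01 without.

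Other genes of the interferon pathway were taken from 7 lists of 86 genes, of which 58 could be tested. Of these, 6 passed as higher and 2 as lower, where 1.83% of all tested genes were called higher and 1.3% lower. Interferon genes themselves were close to absent, with 0 counts in every library for 19 of 21 ligand genes. The 2 others, Ifnk and Ifng, had 4 counts together over all 8 libraries. Of the 12 receptor, JAK and STAT genes, 0 passed in the edgeR QL test, with all libraries or without labelled library 1, and 0 passed with DESeq2 or limma voom. At an unadjusted p under 0.05 in the edgeR test of all libraries there were 0 higher and 1 lower. Of 11 tested negative regulators 0 passed in any of these fits, and 0 had an unadjusted p under 0.05 in the edgeR test of all libraries. Of 15 tested genes in a list of further sensors and adaptors, 1 passed as higher, and 6 were higher at that unadjusted p, where 9.47% of all tested genes were. DESeq2 called 4 of these 15 higher, where 3.74% of genes were, and limma voom 2, where 4.31% were. Of 7 tested IRF genes without Irf9, 1 passed as higher and 1 as lower, and 2 were higher and 2 lower at that unadjusted p. Ifnar1 and Ifnar2, the receptor chains, had log2 fold changes of 0.02 ± 0.06 and 0.12 ± 0.06 (SE). Irf9, which encodes the DNA-binding partner of STAT2, had a log2 fold change of -0.02 ± 0.06 (SE).

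Irf7, the transcription factor that amplifies type I interferon genes and is itself interferon-stimulated, rose. It had 63.3, 93.8, 73.0 and 95.4 CPM in labelled libraries and 53.2, 50.04, 57.1 and 52.0 CPM in controls. Every labelled library was above every control, with labelled library 1 the nearest, as for Rtp4. On the log2 scale the difference was 0.62 ± 0.12 (SE), at an adjusted p of 0.0255 (edgeR QL test, BH). Irf7 was called under 10 of 17 alternatives, and the call was lost with no filter, with the title number as a term, and without labelled library 2 or any single control. Irf8, a transcription factor of B cells and myeloid cells, fell, at 460.3, 413, 383 and 414 CPM in labelled libraries and 531, 482, 524 and 498 CPM in controls. The fold change was -0.28 ± 0.07 (SE) in log2 units, at an adjusted p of 0.0456 (edgeR QL test, BH), and leaving out any library other than labelled library 1 ended the call.

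Cgas, which encodes the sensor of cytosolic DNA, rose, and labelled library 1 followed the rest of its group here. It had 4.24, 5.24, 4.63 and 3.80 CPM in labelled libraries and 2.84, 2.13, 2.19 and 1.92 CPM in controls. In log2 units the difference came to 0.98 ± 0.15 (SE), at an adjusted p of 0.0084 (edgeR QL test, BH), and it was called under 17 of 17 alternatives. Of the 6 Ifit genes, which encode proteins that bind viral RNA ends, 3 rose, where 1.83% of all tested genes were called higher. All 6 were called higher without labelled library 1, where 4.07% of all tested genes were, which is given as a description. Ifit1bl2 had 3.15, 5.997, 4.13 and 6.07 CPM in labelled libraries and 1.098, 1.51, 1.59 and 1.67 CPM in controls, with no overlap and a log2 fold change of 1.72 ± 0.22 (SE). Ifit1 and Ifit1bl1 had log2 fold changes of 0.96 ± 0.21 and 0.45 ± 0.08 (SE). These genes are close copies, so their reads may not have been told apart. Ifit1 was called under 7 of 17 alternatives. Its call was lost with no filter, with the title number as a term, with 1 surrogate variable and when any library other than labelled library 1 was left out, and that of Ifit1bl1 without control 2, control 3 or labelled library 3.

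Of 7 tested guanylate-binding protein genes, 1 rose and 1 fell. Gbp8 had 5.85, 7.76, 8.90 and 13.6 CPM in labelled libraries and 2.94, 2.78, 3.28 and 2.80 CPM in controls. All labelled libraries lay well above the tight controls, and the log2 fold change was 1.61 ± 0.22 (SE). Gbp3 had 66.8, 56.2, 63.2 and 59.9 CPM in labelled libraries and 76.0, 78.5, 84.2 and 81.2 CPM in controls, also with no overlap, and a log2 fold change of -0.38 ± 0.06 (SE). Both were called under 17 of 17 alternatives. Gbp8 shares 61 bp of exon with Gbp4 and 60.0 bp with Gbp9 on the same strand.

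The authors' deposited table, which comes from their own test on the same counts, has 10 members higher and 1 lower at an adjusted p under 0.05, where 3.76% of genes with an adjusted p were higher and 2.87% lower. In the authors' deposited table the higher ones are Isg15, Oas3, Oasl1, Oasl2, Rsad2, Rtp4, Ifih1, Dhx58, Parp12 and Irgm1, and the lower one is Trim25. The sign of the log2 fold change in the authors' deposited table was that found here for all 45 members. The median of the members there was 0.17, on a scale that is not that of the log2 fold changes here. Parp12 had 0.36 there and 1.04 with DESeq2 here, at an unadjusted p of 0.0012 in the authors' test and in DESeq2 here. Stat2 had 0.08 in both.

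Markers of other cell types were measured beside these differences. Monocyte and macrophage markers summed to 5.14 to 5.42 CPM in labelled libraries and 5.73 to 6.76 CPM in controls. Of these 10 markers, Adgre1 had 0.926 to 2.33 CPM in labelled libraries and 2.66 to 3.78 CPM in controls, while Ly6c2 had 1.29 to 2.19 CPM in labelled libraries and 0.836 to 2.06 CPM in controls. Neutrophil markers, with 0 of 9 high enough to test, summed to 0.230 to 0.349 CPM in labelled libraries and 0.101 to 0.246 CPM in controls, and the groups overlapped. Erythroid markers summed to 3.75, 6.80, 4.98 and 8.75 CPM in labelled libraries and 3.17, 2.45, 5.26 and 13.6 CPM in controls. The labelled libraries thus stood in the same order for erythroid markers as for the mean level of the members, and control 4 was the highest of all 8. Of 5 marginal zone B cell markers, Myof was called higher and 0 lower, at 36.8 to 77.7 CPM in labelled libraries and 19.1 to 25.03 CPM in controls, and the markers summed to 271 to 364 CPM in labelled libraries and 218 to 272 CPM in controls. Of 8 B cell markers, Ighd was called lower and 0 higher. The part of these markers, and of those of B cells and plasmacytoid dendritic cells given at the start, in the levels of the members was not tested.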

How the data were processed

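The 8 libraries came from a strand-marking kit for mRNA and were read from both ends, 100 bp each, per the labels. The submitters' processing notes name the build GRCm38, DESeq2 1.10.1, HTSeq, TopHat2 2.0.12 and Trim Galore, with no role or order. The authors deposited raw counts per gene, the basis of every test here. Their deposited comparison table holds a mean signal, a log2 fold change, a linear fold change and test statistic (read as scores) and p-values, of which the log2 values and adjusted p were used. The deposited normalized values were not used. Count columns were matched to libraries by sample title, with 0 columns left unmapped. Replicate numbers were given in accession order. The numbers in the sample titles alternate, with controls 1 to 4 at 1, 3, 5 and 7 and labelled libraries 1 to 4 at 2, 4, 6 and 8. Totals of 38947758 to 51024233 counts per library give the depth.

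The tests ran in edgeR 4.0.16 under R 4.3.3 (filterByExpr, TMM factors, glmQLFit with robust prior, glmQLFTest, group as the sole term), with Benjamini-Hochberg adjustment over all 13035 tested genes and a threshold of 0.05. Scripts were tested on simulated data. Levels are CPM on TMM-scaled library sizes, and list levels are means of log2 CPM with a prior count of 2. Standard errors of log2 fold changes came from the F statistic. Alternatives were DESeq2 1.42.0, voom in limma 3.58.1, other factors and filters, no robust prior, a linear term for the title number, 1 surrogate variable (sva 3.50.0), and each library left out. Gene positions, exon lengths and 3' untranslated regions came from GENCODE vM21 on GRCm38, and promoters from RefSeq GRCm38.p6.

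The members, lists, roles and tests were chosen with earlier results of these data known. Named genes were 8 members always taken (Isg15, Stat2, Usp18, Ddx58, Ifih1, Eif2ak2, Bst2 and Mx1), every member called with all libraries or without labelled library 1, and in each role group the members with the smallest p and the highest level per kb. Outside the members they were Irf7, Irf9, Ifnar1, Ifnar2, the called pathway genes, and the label checks, and a further pathway gene that is not reported here. Values of other members were added after they were seen. Cgas had been listed under an older symbol.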

Additional observations from a re-analysis of the deposited data

Results flagged for a closer look

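In 106 groups of 4 libraries, 3 had a library whose gap to the nearest of the others was large for the range of the group by Dixon's criterion, where chance gives about 1 in 20, or 5.3. Parp14 had 230 CPM in control 1, against 259 to 264 CPM in the other controls. Trim25 had 362 CPM in labelled GFP-ZFP36L1 library 3, against 334 to 337 CPM in the other labelled libraries. Ifi47 had 54.7 CPM in control 1, against 30.2 to 33.0 CPM in the other controls.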

How the results depend on the processing

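The number of members called higher, 1 with all libraries, was 10 with DESeq2 (3.74% of all tested genes), 10 with limma voom (4.31%), 4 with no filter (1.4%), 6 with the title number as a term (4.01%) and 11 with 1 surrogate variable (4.73%), and lay between 0 and 15 when single libraries were left out. The number called lower, 0 with all libraries, was 1 with DESeq2 (2.9%), limma voom (3.77%), the title number (3.89%) and 1 surrogate variable (4.8%), and lay between 0 and 1 when single libraries were left out. The difference in list level was 0.831 SD units with members standardised. Members without overlap numbered 8, both directions together, with all libraries, where 6.24% of all tested genes were higher and 4.98% lower. They numbered 23 without labelled library 1, where 10.8% were higher and 11.7% lower. When single libraries were left out they numbered between 7 and 23, with 15 without control 3. Fewer libraries tend to separate more easily in any gene. Shares for the other leave-outs are not given here, so those counts are a description. Pathway genes called, of 58 tested with all libraries, numbered 8 with all libraries (3.12% of all tested genes) and 13 with limma voom (8.08%). They numbered between 4 and 15 when single libraries were left out (0.599% to 7.19%).

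Small differences changed sign, those of 6 of the 45 members among them. Ifi27l2a was -0.019 with limma voom and ran from -0.0354 (without control 1) to 0.0872 when single libraries were left out. When single libraries were left out, Irf9 ran from -0.0524 to 0.0131 (without labelled library 1), and it was 0.0056 without control 2. Ifnar1 likewise ran from -0.0205 (without control 1) to 0.0493, and it was -0.0011 without control 3 and -0.009 without labelled library 3. The other 5 members were Oas1a (-0.06 with limma voom, -0.10 without labelled library 4), Oas1g (-0.12 with the title number, -0.21 without labelled library 4), Phf11b (-0.03 without labelled library 2), Helz2 (0.04 without labelled library 1) and Epsti1 (-0.01 with limma voom). The cause was not tested. Of the other settings of the 40 named genes, 572 kept direction and side of the threshold, 60 newly passed and 40 no longer passed. The filter of 1 CPM left 43 of the 45 members. The median of the members stayed between 0.16 and 0.30 and their positive count between 37 and 41 in all settings run. No paired analysis was possible because the labels give no replicate numbers shared by the groups. Depth limits Oas1g, Ifi44 and Parp12, all under 4 CPM.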
